A study of Mus musculus with 8 samples.

Results

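The genes described here encode the proteasome: the subunits of its 20S core and 19S cap, the activators and the inhibitor that bind the core, and the chaperones that assemble them. They were taken as every gene of the count table whose symbol starts with Psma, Psmb, Psmc, Psmd, Psme, Psmf or Psmg followed by a digit, which gave 49 of 15576 genes. Of these, 47 have a known proteasome role. The remaining 2 are Psme2b, a near-identical copy of Psme2 elsewhere in the genome, and Psmc3ip, a meiotic recombination protein whose symbol shares the prefix but which is not a subunit. Psmb11 of the thymus was not analysed here.

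The samples were leukemic stem cells (LSCs) sorted from the bone marrow of C57BL/6 mice with chronic myelogenous leukemia (CML), in which a tetracycline-controlled BCR-ABL transgene is switched on in stem cells through the SCL-tTA driver once tetracycline is withdrawn. Of the libraries, 4 (numbered 1, 2, 3 and 5) came from untreated mice (CML), and 4 came from mice given imatinib, a tyrosine kinase inhibitor (TKI) of BCR-ABL, at 400 mg/kg on alternate days for 4 weeks by the treatment label (CML-TKI). The study's text also names a lower dose, so the dose behind these libraries is uncertain. Both groups carry the BCR-ABL transgene, and no library without it enters the comparison. The labels give the sort gate as Lin-Sca1+cKit+Flt3-CD150-CD48+, whereas the study's text describes LSCs as CD150+CD48-.

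The proteasome degrades proteins tagged with ubiquitin. Its barrel-shaped 20S core stacks outer rings of alpha subunits, which gate the entrance, on inner rings of beta subunits, some of which carry the proteolytic active sites. The 19S cap recognises the ubiquitin chain, removes it, unfolds the substrate with a ring of ATPases and feeds it into the core. In cells exposed to interferon and in many blood cells, the catalytic beta subunits Psmb6, Psmb7 and Psmb5 are replaced in newly built cores by Psmb9, Psmb10 and Psmb8, giving the immunoproteasome, whose peptides are loaded on MHC class I molecules after transport by Tap1 and Tap2.

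The libraries held 1041552 to 8620101 estimated counts in the table, and CML-TKI 3 was the shallowest, with a median of 46 counts per proteasome gene against 215 in the other libraries. Levels are given as CPM, counts scaled to a common library size with TMM factors. The ribosomal RNA precursor Rn45s took 20.2 to 38.3% of counts in CML, highest in CML 5, and 9.23 to 22.5% in CML-TKI. CML 1, 2 and 3 correlated with each other at 0.974 to 0.982 and with CML 5 at 0.899 to 0.914 (Pearson, log2 CPM, across genes). CML-TKI 1 stood apart from its group. It correlated with CML 1, 2 and 3 at 0.808 to 0.817 and with CML-TKI 2, 3 and 4 at 0.711 to 0.770, and on the first principal component (52.5% of the variance) it lay at -19.2, against -74.4 to -69.3 for the CML libraries and 70.1 to 119 for the other CML-TKI libraries. Marker lists differed with treatment. Of 10 HSC markers, all 10 separated the groups without overlap, lower in CML-TKI, where 13.1% of all genes did. By edgeR 5 of them passed the test as lower (3.93% of all genes). The summed level of the 10 was 1495 to 1664 CPM in CML and 57.33 to 411.6 CPM in CML-TKI. Of the granulocyte markers, 10 of 11 rose, where 6.29% of all genes did. The sum of the 11 ranged from 162.9 to 266.8 CPM in CML and from 1463 to 8410 CPM in CML-TKI. All 8 monocyte and macrophage markers rose, from sums of 227.6 to 295.5 CPM to sums of 1307 to 6717 CPM. Of 6 megakaryocyte markers, 2 fell (sums 1202 to 1446 and 48.65 to 584.3 CPM). A log2 fold change below 0 was seen for 5 of the 6, and 4 were lower without overlap. No tested marker of dendritic cells (5), lymphoid cells (3, with Cd3e and Cd3g at 0 in all CML libraries) or erythroid cells (7) was called by edgeR. Of the 7 erythroid markers, 6 had a log2 fold change above 0 (median of the 7, 6.88). An unadjusted p under 0.05 was reached by 5 of them (25.7% of all genes). Dendritic cell markers summed to 109.2 to 153.7 CPM in CML and 34.09 to 385.8 CPM in CML-TKI, lymphoid markers to 31.65 to 48.26 and 27.35 to 298.1 CPM, and erythroid markers to 58.68 to 133.2 and 58.69 to 50410 CPM, with CML-TKI 3 the highest library for all 3 lists. The part that these shifts in marker genes play in the results below was not tested, and in these bulk libraries fewer cells of a type and less RNA per cell cannot be told apart.

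Of the proteasome genes, 1 passed the test between CML-TKI and CML LSCs, and the estimates of the others are given by role as a description. All 17 Psm-named subunits of the 19S cap had a log2 fold change (CML-TKI over CML) above 0. The 14 constitutive 20S subunits lay from -0.24 to 0.65, and all 3 immunoproteasome catalytic subunits were below 0. In the edgeR quasi-likelihood test, adjusted over all 11937 genes after Benjamini and Hochberg, 1 of the 49 genes passed an adjusted p of 0.05, the 19S deubiquitinase Psmd14, which rose. That is 2.04% of the members against 10.2% of all genes tested (6.29% called higher and 3.93% called lower). Without adjustment, 11 members had a p under 0.05 (22.4%, against 25.7% of all genes), 10 of them higher in CML-TKI. By DESeq2 6 members were called, and 8 by limma-voom with quality weights, where 18.1% and 21.3% of all genes were called. Without CML-TKI 1, edgeR called 3 members (Psmd14, Psme2b and Psmf1) among 2504 genes, and without CML 5 it called Psmb5 alone among 808 genes.

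**Figure D1:**
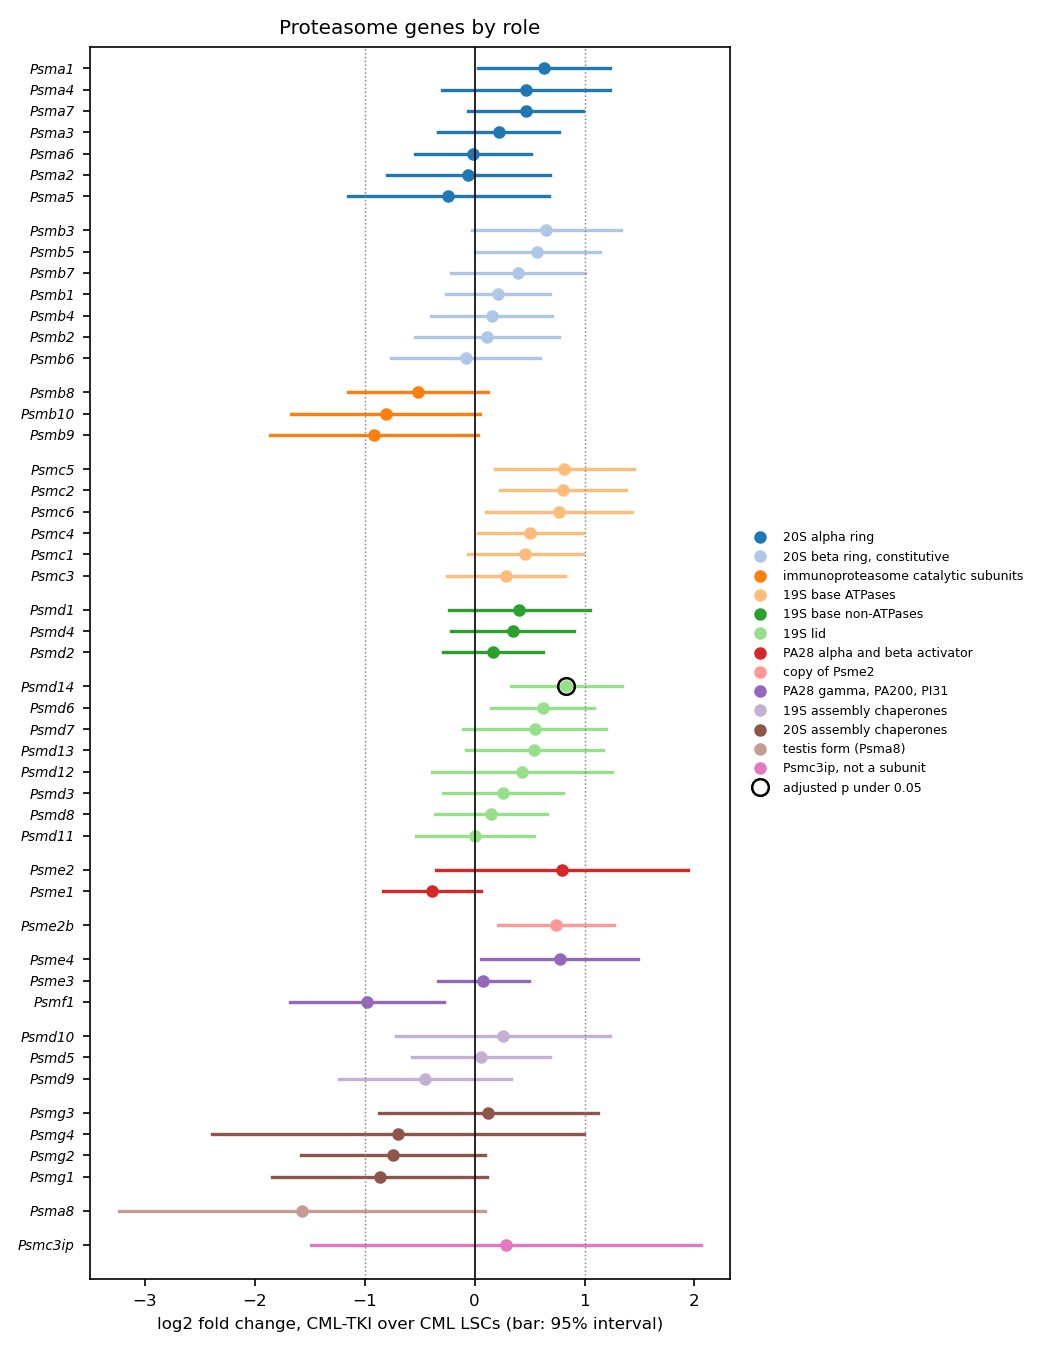
Log2 fold change of CML-TKI over CML LSCs (x axis) for each of the 49 genes, grouped and coloured by role, where points are edgeR estimates from 4 libraries per group, bars are 95% intervals, dotted lines mark a log2 fold change of 1 in either direction and the black ring marks an adjusted p under 0.05. The 17 Psm-named subunits of the 19S cap lie at or to the right of 0, the 3 immunoproteasome subunits lie to the left, and Psmd14 alone is ringed.

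Fold changes of proteasome genes were mostly within a 2-fold range. The median size of the log2 fold change was 0.46 over the members and 0.52 over all genes tested, with median standard errors of 0.28 and 0.40. Of the members, 48 had a log2 fold change under 1 in size, against 74.2% of all genes, and the testis subunit Psma8 was the exception. For 19 members (38.8%, against 24.1% of all genes) the 95% interval lay wholly inside a 2-fold change in either direction. The direction leaned upward: 35 members were above 0 and 14 below, against 50% above 0 over all genes, with a median of 0.26. This median was 0.10 without CML-TKI 2. With total counts without Rn45s it was also 0.10, with 30 members above 0 and 19 below, and there the median of all genes was -0.14. Groups did not overlap for 10 members. Of these, 7 had all CML-TKI libraries above all CML libraries (14.3%, against 10.3% of all genes): Psmc2, Psmc4, Psmc5, Psmc6, Psmd6, Psmd14 and Psme2b. The other 3 were lower (6.12%, against 13.1%): Psma8, Psme1 and Psmf1.

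The catalytic subunits of the immunoproteasome were read against the constitutive subunits that they replace, as the ratio of each pair within a library. Promoters of both forms are shown first, because interferon and stress factors are known to act on such genes through short promoter elements. Each is the 250 bases before the RefSeq start in GRCm38.p6, 5′ to 3′. Psmb8 (beta5i) has its window at chr17:34197945-34198194 on the plus strand, and the capitals mark TTCNNNGAA, the letters of a STAT element, at bases 154 to 162, which ends 88 bases before the start. Its partner Psmb5 (beta5) has its window at chr14:54617996-54618245 on the minus strand, and the capitals mark TGACNNNGC, the letters of an antioxidant response element, at bases 204 to 212, which ends 38 bases before the start. Psmb10 (beta2i, chr8:105938393-105938642 on the minus strand) and Psmb9 (beta1i, chr17:34187331-34187580 on the minus strand) held neither run of letters, nor the letters searched for as an interferon-stimulated response element, GAAA, any 2 bases and GAAA again.
Psmb8: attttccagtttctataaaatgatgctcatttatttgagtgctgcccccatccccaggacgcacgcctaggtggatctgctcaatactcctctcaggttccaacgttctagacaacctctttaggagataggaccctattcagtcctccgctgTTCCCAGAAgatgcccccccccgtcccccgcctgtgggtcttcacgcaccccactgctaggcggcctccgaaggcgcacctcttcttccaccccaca
Psmb5: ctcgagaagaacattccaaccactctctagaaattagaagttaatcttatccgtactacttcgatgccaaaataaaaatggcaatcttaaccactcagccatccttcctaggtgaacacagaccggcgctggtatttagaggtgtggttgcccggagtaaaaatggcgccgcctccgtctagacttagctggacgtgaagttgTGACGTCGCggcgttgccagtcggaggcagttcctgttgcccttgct
Psmb10: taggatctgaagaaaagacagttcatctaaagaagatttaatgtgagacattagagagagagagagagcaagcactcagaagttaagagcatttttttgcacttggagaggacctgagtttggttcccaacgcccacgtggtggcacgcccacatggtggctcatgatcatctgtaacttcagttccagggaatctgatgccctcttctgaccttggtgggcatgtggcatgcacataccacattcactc
Psmb9: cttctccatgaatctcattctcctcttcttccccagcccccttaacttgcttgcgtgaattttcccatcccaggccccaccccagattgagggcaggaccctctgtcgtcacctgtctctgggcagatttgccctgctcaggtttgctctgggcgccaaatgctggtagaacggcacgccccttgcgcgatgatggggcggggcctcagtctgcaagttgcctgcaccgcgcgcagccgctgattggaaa

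Both strands were searched, and a match describes letters only. TTCNNNGAA was present in 7.02% of 32851 RefSeq mouse promoter windows of this length, and in 2 of the 44 windows of the 41 matched members (Psmb8 and Psmg1). TGACNNNGC was in 10.2% of all windows and in 5 of the 44 (Psmb5, Psmb6, Psmc6, Psmd12 and Psmd9). The Psmb6 window ends at chr11:70525356, past the first base of the gene span given below. Its match, at bases 242 to 250 of the window, lies within that span. The interferon-stimulated response element was in 2.98% of all windows and in 3 of the 44 (Psmb3, Psmd4 and Psmd9). CCAAT was in 33.8% of all windows and in 14 of the 44, Psmb9 and Psmd14 among them.

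Relative to their partners, 2 of the 3 immunosubunits were lower in all CML-TKI libraries, without overlap. For the chymotrypsin-like site, the ratio of Psmb8 to Psmb5, with each gene's level divided by the length of its longest coding transcript, was 0.952, 0.931, 0.892 and 0.894 in CML 1, 2, 3 and 5 and 0.267, 0.547, 0.438 and 0.498 in CML-TKI 1 to 4. The CML libraries lay close to equal amounts of both transcripts, and all CML-TKI libraries lay lower. The mean ratio was 0.917 ± 0.0293 (SD, n = 4) in CML and 0.438 ± 0.122 in CML-TKI. The log2 ratio differed by -1.12, 2.17-fold lower in CML-TKI (p = 0.0286 by a two-sided exact permutation test, the floor of its 70 relabelings, and 0.0429 adjusted over the 3 ratios). For the trypsin-like site, the ratio of Psmb10 to Psmb7 was 1.09, 0.904, 0.744 and 1.09 in CML and 0.395, 0.641, 0.344 and 0.317 in CML-TKI, again without overlap. The log2 ratio differed by -1.21, 2.32-fold lower (exact two-sided permutation test, p = 0.0286, adjusted 0.0429). With CML 1 to 3 summed into 1 library, the exact permutation p was 0.0667 for each of these ratios, the smallest possible there. Among single genes, 13.1% of all tested were lower in CML-TKI without overlap, and the share among ratios of gene pairs was not computed. For the caspase-like site, the ratio of Psmb9 to Psmb6 was 0.827, 0.806, 0.716 and 0.882 in CML and 0.164, 0.637, 0.341 and 0.878 in CML-TKI. CML-TKI 4 lay within the CML range, and the log2 difference of -0.94 did not pass (exact two-sided permutation test, p = 0.1143, adjusted 0.1143). Without CML-TKI 4 it was -1.29, and the groups then no longer overlap by construction, so no test is read from that omission.

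CML-TKI 1 had the lowest ratio at the chymotrypsin-like and caspase-like sites, and it also had the lowest sums of granulocyte and monocyte markers and the highest sum of HSC markers among the CML-TKI libraries. Without it, the log2 differences were -0.90 for Psmb8 to Psmb5, -1.20 for Psmb10 to Psmb7 and -0.49 for Psmb9 to Psmb6. Leaving out CML 5 gave -1.13, -1.14 and -0.90. With any CML library left out, Psmb10 to Psmb7 had an exact p of 0.0571.

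**Figure D2:**
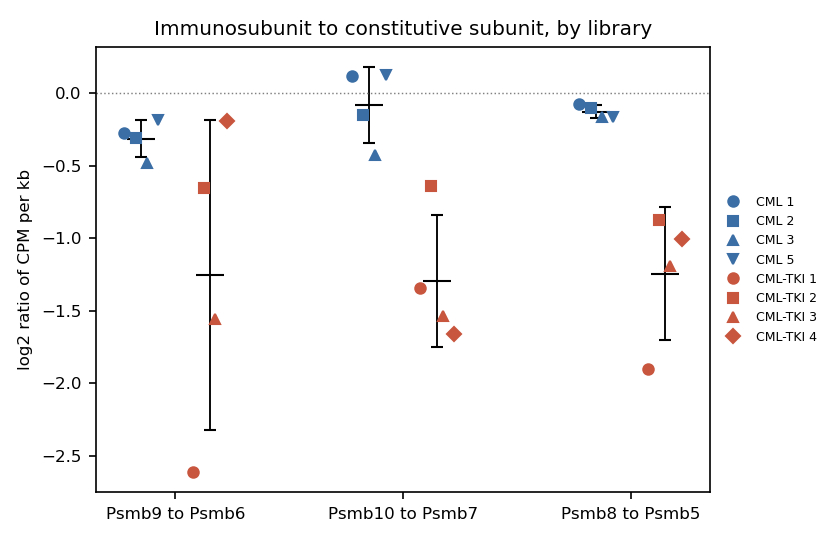
Log2 ratio of each immunoproteasome catalytic subunit to the constitutive subunit it replaces (y axis, per transcript length) in the 4 CML and 4 CML-TKI libraries, where points are libraries and black bars are mean ± SD. The CML-TKI libraries lie below all CML libraries for Psmb8 to Psmb5 and Psmb10 to Psmb7, and CML-TKI 4 reaches the CML range for Psmb9 to Psmb6.

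Neither side of these ratios passed the test as a single gene. Psmb8 (chr17:34198195-34201454, GRCm38.p6) was at 91.4, 91.7, 80.8 and 154.7 CPM in CML 1, 2, 3 and 5 and at 50.3, 96.7, 66.9 and 79.1 CPM in CML-TKI 1 to 4. The groups overlapped, and CML 5 stood above every other library. Its log2 fold change was -0.51 ± 0.29 (SE), with an adjusted p of 0.293. Psmb9 (chr17:34182030-34187330) was at 48.1, 49.99, 42.5 and 87.7 CPM in CML and 14.4, 46.2, 17.5 and 41.6 CPM in CML-TKI. CML-TKI 2 lay within the CML range, and the log2 fold change was -0.92 ± 0.42, adjusted p = 0.209. Psmb10 (chr8:105935728-105938392) was at 30.4, 27.4, 22.03 and 55.7 CPM in CML and 16.9, 29.8, 14.2 and 15.9 CPM in CML-TKI. Again only CML-TKI 2 lay within the CML range, with a log2 fold change of -0.81 ± 0.38, adjusted p = 0.22. No immunosubunit was called by edgeR, DESeq2 or limma-voom (10.2%, 18.1% and 21.3% of all genes were). By edgeR 0 of the 3 had an unadjusted p under 0.05 (25.7% of all genes). The CML mean of all 3 rests partly on CML 5: without it their log2 fold changes were -0.27, -0.64 and -0.47.

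The constitutive partners lay on the other side of 0 or near it. Psmb5 (chr14:54614120-54617995) was at 52.8, 54.2, 49.9 and 95.4 CPM in CML and 104.5, 97.6, 84.4 and 87.7 CPM in CML-TKI. CML 5 lay among the CML-TKI libraries and the other CML libraries lay below all of them, giving a log2 fold change of 0.57 ± 0.25 and an adjusted p of 0.192. Without CML 5 it was 0.83, adjusted p = 0.033. Psmb7 (chr2:38588046-38643952) was at 24.6, 26.8, 26.3 and 45.1 CPM in CML and 38.4, 41.2, 37.3 and 45.0 CPM in CML-TKI. CML 5 lay level with the highest CML-TKI library and the other CML libraries lay below all CML-TKI libraries, with a log2 fold change of 0.40 ± 0.27, adjusted p = 0.398. Without CML 5 it was 0.64, adjusted p = 0.132. Psmb6 (chr11:70525324-70527858) was at 34.2, 36.5, 34.98 and 58.6 CPM in CML and 53.2, 42.8, 30.7 and 27.8 CPM in CML-TKI. Its groups overlapped throughout, with a log2 fold change of -0.08 ± 0.30, adjusted p = 0.902, and its sign changed in several alternatives.

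**Figure D3:**
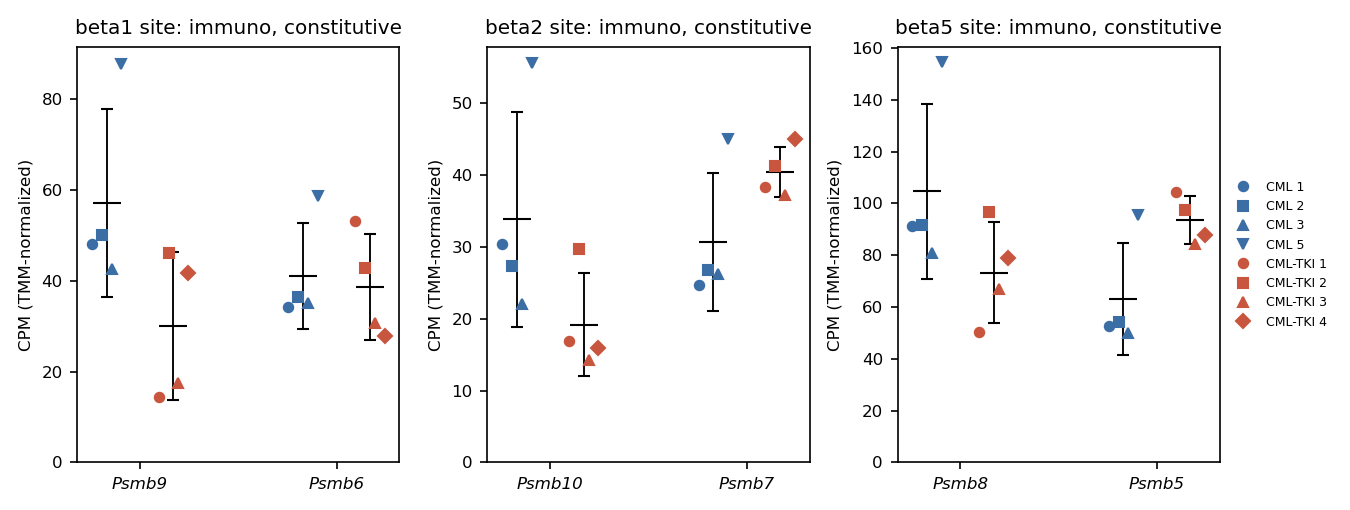
CPM (y axis) of the 3 immunoproteasome catalytic subunits and the constitutive subunits they replace in the 4 CML and 4 CML-TKI libraries, where points are libraries and black bars are mean ± SD. CML 5 is the highest CML library for all 6 genes, reaching 154.7 CPM for Psmb8 and 95.4 CPM for Psmb5.

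Among all 14 constitutive 20S subunits, 10 had a log2 fold change above 0 and 4 below, with a median of 0.22 and a range of -0.24 to 0.65. This split depended on single libraries: all 14 were above 0 without CML-TKI 3 and 13 without CML 5 (median 0.39), and 8 were with CML 1 to 3 summed (median 0.09). None was called by edgeR or DESeq2, 2 had an unadjusted p under 0.05, and limma-voom called Psmb3 and Psmb5. The shares over all genes were 10.2% by edgeR, 18.1% by DESeq2, 25.7% unadjusted and 21.3% by limma-voom. For 8 of the 14 the 95% interval lay inside a 2-fold change (24.1% of all genes). Summed over the 14, the level was 723.5 to 1121 CPM in CML and 852.5 to 1214 CPM in CML-TKI, with overlap. In the alpha ring, Psma1 was highest in log2 fold change, at 100.4, 91.3, 93.1 and 95.4 CPM in CML and 119.5, 185.9, 198.4 and 88.2 CPM in CML-TKI (0.63 ± 0.27, adjusted p = 0.172). Its CML libraries were tightly grouped, and CML-TKI 4 lay below them. Psma5 was lowest, at 29.4, 30.3, 23.4 and 39.3 CPM in CML and 32.3, 38.7, 8.77 and 22.1 CPM in CML-TKI (-0.24 ± 0.41, adjusted p = 0.765), and CML-TKI 3, the shallowest library, was its lowest value. In the beta ring Psmb3, a structural subunit without an active site, was highest, at 36.9, 40.2, 31.9 and 67.6 CPM in CML and 89.3, 76.5, 48.2 and 61.9 CPM in CML-TKI (0.65 ± 0.30, adjusted p = 0.213). CML 5 again lay among the CML-TKI libraries.

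Per kilobase of the longest coding transcript, levels of the constitutive 20S subunits in CML ran from 14.03 CPM per kb for Psma2 to 139.5 for Psmb4. The level of Psmb8 in CML, 64.3 CPM per kb, was close to that of Psmb5, 70.2 CPM per kb, whereas in CML-TKI the corresponding levels were 45.0 and 104. Psmb9 was at 42.2 and 22.1 CPM per kb and Psmb10 at 25.8 and 14.6 in CML and CML-TKI. Per-length levels depend on the transcript taken, and which isoform these cells express is unknown.

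In the 19S cap, all 17 Psm-named subunits had a log2 fold change above 0 (50% of all genes did), with a median of 0.46. Adrm1, read below with other genes of the pathway, is not among them. Of the 17, 1 was called higher by edgeR, where 6.29% of all genes were, and 6 had CML-TKI above CML without overlap, where 10.3% of all genes did. DESeq2 called 4 and limma-voom 4, where 18.1% and 21.3% of all genes were called. The summed level of the 17 was 906.9 to 972.7 CPM in the CML libraries and 1082 to 1472 CPM in the CML-TKI libraries. The smallest value was that of the lid subunit Psmd11, at 57.6, 52.5, 49.5 and 60.6 CPM in CML and 60.6, 51.8, 37.3 and 69.7 CPM in CML-TKI (0.0043 ± 0.24, adjusted p = 0.994). It turned slightly negative in 12 of 18 alternatives, and over all alternatives 15 to 17 of the 17 were above 0.

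Psmd14 (chr2:61711694-61800376) encodes the lid metalloprotease that cuts the ubiquitin chain off the substrate as it enters the cap. It was at 55.6, 56.4, 47.9 and 38.8 CPM in CML 1, 2, 3 and 5 and at 80.9, 103.5, 100.8 and 69.98 CPM in CML-TKI 1 to 4. Every CML-TKI library was above every CML library, and the means were 49.7 ± 8.19 and 88.8 ± 16.1 CPM (SD, n = 4). The log2 fold change was 0.84 ± 0.23 (95% interval 0.33 to 1.34), with an adjusted p of 0.0456 by edgeR's quasi-likelihood test. This lay close to the threshold, and the call was lost in 12 of 18 alternatives, with adjusted p up to 0.299, while the direction stayed. Among the other lid subunits, Psmd6 was at 39.9, 41.5, 46.0 and 40.4 CPM in CML and 57.9, 77.8, 57.0 and 64.8 CPM in CML-TKI, without overlap (log2 fold change 0.62 ± 0.21, adjusted p = 0.0932 by edgeR), and was called by DESeq2 and limma-voom. The lid as a whole had a median of 0.49 over 8 genes.

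The 6 ATPases that form the unfolding ring, Psmc1 to Psmc6, had log2 fold changes of 0.29 to 0.82 with a median of 0.64, and all were above 0 in every alternative. Their summed level was 231.3 to 242.5 CPM over the CML libraries, including CML 5, and 295.5 to 400.7 CPM over the CML-TKI libraries. None of the ATPases was called singly by edgeR, 4 had an unadjusted p under 0.05, DESeq2 called Psmc2 and Psmc5, and limma-voom called Psmc5, where the shares over all genes were 10.2%, 25.7%, 18.1% and 21.3%. Psmc5 was highest in log2 fold change, at 16.6, 14.9, 14.3 and 21.6 CPM in CML and 31.7, 33.8, 28.5 and 24.7 CPM in CML-TKI (0.82 ± 0.28, adjusted p = 0.1). All CML-TKI libraries were above all CML libraries, as was also the case for Psmc2, Psmc4 and Psmc6 (10.3% of all genes). Psmc2 was at 45.6, 35.5, 40.6 and 32.7 CPM in CML and 89.1, 74.7, 57.0 and 48.4 CPM in CML-TKI (0.81 ± 0.26, adjusted p = 0.0791). Psmc3 was lowest, at 51.1, 49.2, 47.0 and 62.3 CPM in CML and 65.5, 85.5, 55.9 and 48.1 CPM in CML-TKI, with overlap (0.29 ± 0.24, adjusted p = 0.502), and its log2 fold change was 0.10 without CML-TKI 2.

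The non-ATPase subunits of the cap base lay nearer to 0, with a median of 0.35 over 3 genes. None was called by edgeR, DESeq2 or limma-voom (10.2%, 18.1% and 21.3% of all genes were). None had an unadjusted p under 0.05 by edgeR (25.7% of all genes). Psmd1, a scaffold that anchors the ubiquitin receptor Adrm1, was at 143.1, 124.9, 120.0 and 67.1 CPM in CML and 172.5, 187.2, 98.6 and 143.3 CPM in CML-TKI (0.41 ± 0.29, adjusted p = 0.413). CML 5 was far below the other CML libraries, and without it the log2 fold change was 0.21. Psmd1 shares genomic sequence with Htr2b on the annotation, and these libraries do not mark strand. Psmd2, the scaffold that binds ubiquitin shuttle factors, was at 152.8, 153.6, 142.2 and 145.0 CPM in CML and 173.8, 194.6, 118.4 and 177.9 CPM in CML-TKI (0.17 ± 0.20, 95% interval -0.29 to 0.62), and the log2 fold change was 0.08 without CML-TKI 2 and 0.31 without CML-TKI 3.

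**Figure D4:**
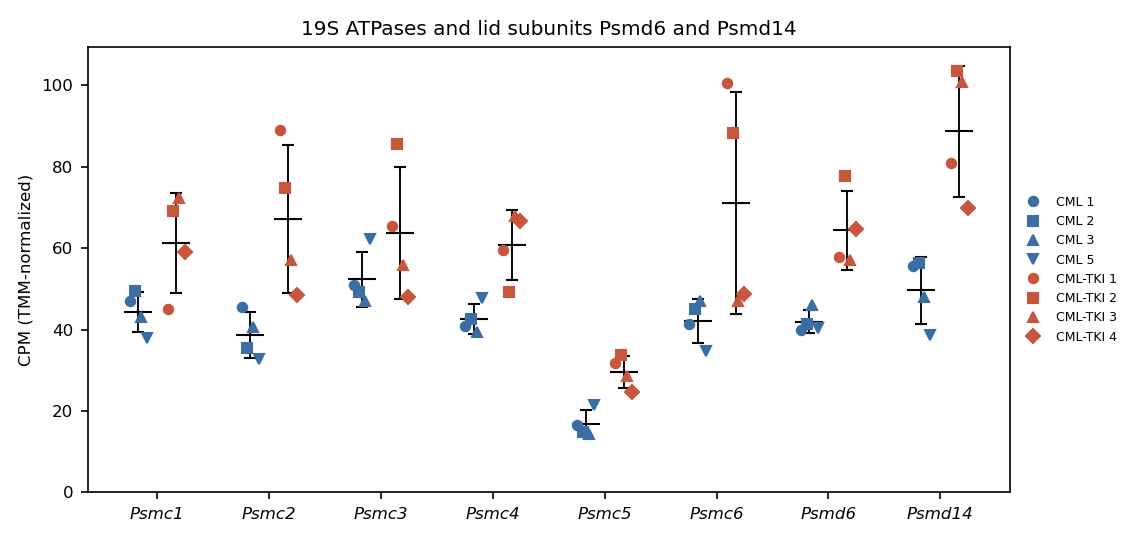
CPM (y axis) of the 6 ATPases of the 19S cap and the lid subunits Psmd6 and Psmd14 in the 4 CML and 4 CML-TKI libraries, where points are libraries and black bars are mean ± SD. Psmd14 ranges from 38.8 to 56.4 CPM in CML and from 69.98 to 103.5 CPM in CML-TKI, without overlap.

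None of the activators that can replace the 19S cap was called by edgeR (10.2% of all genes were), and differences among them were not tested. The PA28 ring, which is induced by interferon and favours peptides for MHC class I, is built of Psme1 and Psme2. Psme1 was at 72.0, 72.8, 58.9 and 70.5 CPM in CML and 45.0, 55.5, 52.6 and 56.5 CPM in CML-TKI. The groups did not overlap and CML-TKI was lower, but the log2 fold change of -0.39 ± 0.20 did not pass (adjusted p = 0.256), and Psme1 overlaps Emc9 on the annotation. Psme2 was at 7.63, 3.47, 5.80 and 9.90 CPM in CML and 7.22, 12.7, 18.6 and 9.11 CPM in CML-TKI, with overlap (0.79 ± 0.51, adjusted p = 0.367). Its copy Psme2b took more of the reads, at 35.5, 32.6, 31.5 and 40.7 CPM in CML and 46.9, 51.1, 72.3 and 65.3 CPM in CML-TKI (0.74 ± 0.24, adjusted p = 0.0785 by edgeR), and was called by DESeq2 and limma-voom. Because the copies are nearly identical, how reads were split between them is uncertain, and Psme2b also overlaps 9930111J21Rik1 on the annotation. Summed, an alternative chosen after seeing the data, they were at 41.8 ± 6.63 CPM in CML and 70.8 ± 15.8 CPM in CML-TKI (SD, n = 4), a log2 fold change of 0.75 ± 0.24 with an adjusted p of 0.0796 by edgeR. The subunits of this ring had log2 fold changes of opposite sign, and neither passed the test by edgeR.

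Psme4, the PA200 activator, which is known for its part in histone degradation, was at 161.9, 149.4, 145.1 and 61.6 CPM in CML and 284.9, 231.2, 156.7 and 210.2 CPM in CML-TKI. CML 5 was far below the other CML libraries and CML-TKI 3 lay among them, so that the groups overlapped (0.77 ± 0.32, adjusted p = 0.159). Without CML 5 the log2 fold change was 0.53, adjusted p = 0.184. Psme4 overlaps Erlec1 on the annotation. Psme3, the nuclear PA28 gamma activator, was at 145.5 to 175.5 CPM in CML and 148.1 to 189 CPM in CML-TKI (0.08 ± 0.19, 95% interval -0.34 to 0.50). Psmf1 encodes PI31, which can inhibit the 20S core and also serves in moving proteasomes within cells. It was at 46.7, 55.0, 48.3 and 52.9 CPM in CML and 41.4, 17.7, 17.5 and 25.0 CPM in CML-TKI. All CML-TKI libraries were lower, with CML-TKI 1 nearest to CML. The log2 fold change was -0.98 ± 0.32 with an adjusted p of 0.08 by edgeR, 0.0279 by DESeq2, 0.0388 by limma-voom and 0.00782 by edgeR without CML-TKI 1. Leaving out any other library gave adjusted p of 0.118 to 0.189 by edgeR, and summing CML 1 to 3 gave 0.384.

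Of the 7 assembly chaperones, none was called by edgeR, DESeq2 or limma-voom (10.2%, 18.1% and 21.3% of all genes were). By edgeR 0 of the 7 had an unadjusted p under 0.05 (25.7% of all genes). The 4 that assemble the 20S core had a median log2 fold change of -0.72, with 3 below 0, and the median was -0.44 without CML-TKI 3 and -0.46 without CML 5. Psmg1 was lowest, at 35.8, 27.8, 22.6 and 34.2 CPM in CML and 15, 14.6, 5.48 and 29.4 CPM in CML-TKI (-0.86 ± 0.44, adjusted p = 0.25). CML-TKI 4 lay within the CML range and CML-TKI 3 had the lowest value, and the log2 fold change was -1.31 without the former and -0.61 without the latter. Psmg2, which pairs with Psmg1, had a log2 fold change of -0.75 ± 0.38. Psmg3 was highest, at 13.8, 6.37, 9.08 and 18.8 CPM in CML and 15.2, 14.9, 7.67 and 14.1 CPM in CML-TKI (0.13 ± 0.45, adjusted p = 0.893). The chaperones of the 19S base had a median of 0.06. Psmd10 (gankyrin) was at 10.8, 9.07, 10.8 and 12.5 CPM in CML and 10.6, 13.3, 21.9 and 7.02 CPM in CML-TKI (0.26 ± 0.44, adjusted p = 0.762), and it overlaps Atg4a on the annotation. Psmd9 was at 21.9, 19.5, 22.6 and 32.0 CPM in CML and 12.9, 16.4, 13.2 and 27.1 CPM in CML-TKI (-0.45 ± 0.35, adjusted p = 0.458). Its log2 fold change was -0.76 without CML-TKI 4 and -0.30 without CML 5.

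At the low end of expression, Psma8, the alpha subunit of testis proteasomes, was at 4.09, 6.95, 4.06 and 5.77 CPM in CML and 0.95, 2.79, 0 and 2.602 CPM in CML-TKI. The groups did not overlap, and the log2 fold change of -1.57 ± 0.75 did not pass (adjusted p = 0.219). At the depth of CML-TKI 3, a count of 0 allows up to 3.29 CPM (3 counts, counting error only), which reaches into the range of the other CML-TKI libraries. Psmc3ip was at 1.35 to 3.30 CPM in CML and 0 to 5.58 CPM in CML-TKI (0.29 ± 0.80).

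Other genes of the ubiquitin-proteasome pathway were read from a list of 32 symbols, of which 27 were tested. It holds the core maturation factor Pomp, the cap's ubiquitin receptor Adrm1, the cap partner Usp14 and shuttle factors. Also in it are the Vcp segregase with its cofactors, the proteasome gene regulators Nfe2l1 and Nfe2l2, and ubiquitin genes. None of the 27 was called by edgeR, 4 had an unadjusted p under 0.05, DESeq2 called 2 and limma-voom 4, where the shares over all genes were 10.2%, 25.7%, 18.1% and 21.3%. Their median log2 fold change was 0.01, 15 were above 0 and 12 below, and for 19 the 95% interval lay inside a 2-fold change (24.1% of all genes).

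Of 32 genes of MHC class I antigen presentation and interferon signalling, 5 rose and 6 fell, where 6.29% of all genes tested rose and 3.93% fell, and the median log2 fold change was -0.31. Tap1, the peptide transporter gene that lies head to head with Psmb9 on chr17, with their starts 226 bases apart, was at 263.7, 256.1, 251.0 and 303.4 CPM in CML and 91.7, 126.1, 117.3 and 136.6 CPM in CML-TKI. The groups were far apart, and the log2 fold change was -1.19 ± 0.20 (adjusted p = 0.00604). The class I heavy chain H2-K1 fell from 1560 ± 375 to 524.5 ± 91.7 CPM (SD, n = 4; log2 fold change -1.57 ± 0.23, adjusted p = 0.00325). The interferon-induced GTPase genes Gbp2 (-1.82 ± 0.33, adjusted p = 0.00837) and Ifi47 (-1.81 ± 0.35, adjusted p = 0.0109) fell as well. In the opposite direction, the interferon gamma receptor genes rose, Ifngr1 by 1.69 ± 0.34 (adjusted p = 0.0125) and Ifngr2 by 2.02 ± 0.34 (adjusted p = 0.00654), as did Irf8, a transcription factor of monocytes and dendritic cells, by 5.26 ± 0.57 (adjusted p = 0.00087), and Pdia3, a chaperone of class I assembly, by 1.17 ± 0.23 (adjusted p = 0.012). B2m and Igtp also fell and Calr also rose. Of the 18 alternatives, the call was lost in 5 for Ifngr1, 3 for Pdia3, 2 each for Tap1, Ifngr2 and Gbp2, and 1 for Ifi47. These changes were measured in the same libraries in which granulocyte and monocyte markers rose.

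Within the CML group the proteasome genes followed the split of CML 5 from CML 1 to 3. CML 5 was the highest CML library for 33 of the 49 genes and the lowest for 7, and it was highest for 10 of 10 constitutive and immunoproteasome beta subunits. The difference in log2 CPM between CML 5 and the mean of CML 1 to 3 ran from -1.30 for Psme4 and -0.94 for Psmd1 to 1.07 for Psmb10 and 1.10 for Psmg4. It was lower for genes with longer transcripts: Spearman's rho with transcript length was -0.53 across the 49 members and -0.53 across 11302 genes, a description across genes that share libraries. The fold change between groups did not follow length, with rho of -0.03 across the members and 0.05 across all genes. The ratio of Psmb8 to Psmb5 in CML 5 lay within the range of CML 1 to 3 (0.894 against 0.892 to 0.952), that of Psmb10 to Psmb7 lay at its upper end (1.09 against 0.744 to 1.09), and that of Psmb9 to Psmb6 lay above it (0.882 against 0.716 to 0.827). The sum of the 6 ATPases in CML 5, 237.2 CPM, lay inside the range of the other CML libraries.

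**Figure D5:**
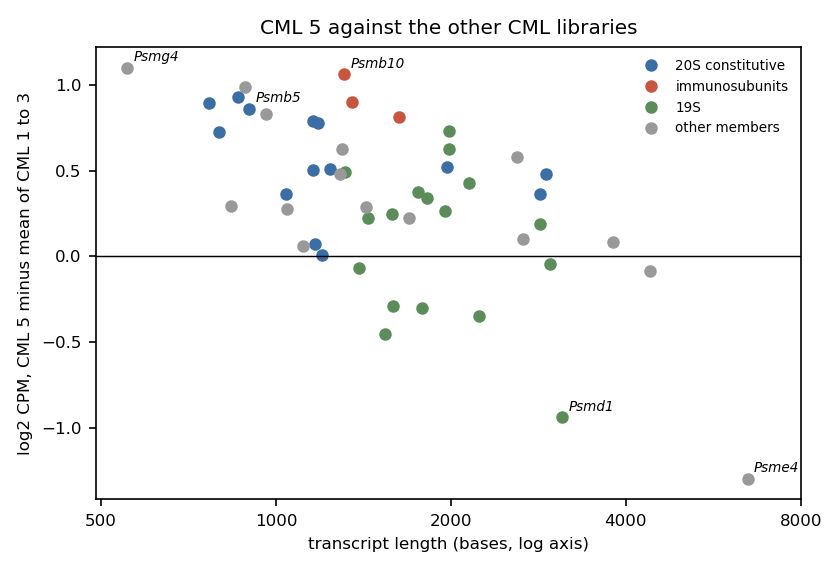
Difference in log2 CPM between CML 5 and the mean of CML 1 to 3 (y axis) against the length of the longest coding transcript in bases (x axis, log scale) for the 49 genes, each point a gene coloured by role. Short transcripts such as Psmg4 (1.10) lie above 0, and the long Psme4 (-1.30) and Psmd1 (-0.94) lie below.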

How the data were processed

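RNA from sorted LSCs was made into Nextera XT libraries, which do not mark strand. Per the study's methods and the submitters' processing notes, the authors aligned reads to mm10 with STAR 2.6.1d and quantified RefSeq transcripts in Partek Flow 8.0. The deposited table holds estimated counts per gene, of which 8.32 to 22.1% per library are not whole, as when reads are divided among genes. These were rounded. An untreated column is numbered 5 and matches no sample number, so it was used as a library of its group without a number. Nothing states that libraries came from separate animals, so p-values measure the spread between these libraries only.

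Genes were filtered with filterByExpr (minimum count 10, minimum total 15), which kept 11937 of 15576 genes and all 49 members, scaled with TMM and tested with edgeR 4.0.16 (R 4.3.3, robust quasi-likelihood, 4 libraries per group, Benjamini-Hochberg adjusted p under 0.05). Log2 CPM used a prior count of 2. DESeq2 1.42.0, limma 3.58.1, other scalings and filters, and leaving out each library were alternatives. Subunit ratios were compared with exact permutation tests that enumerate all relabelings, and Spearman's rho was computed with scipy 1.17.1. The code was tested on simulated data. Start sites and promoters are from RefSeq (GRCm38.p6), and transcript lengths are those of the longest protein-coding transcript in GENCODE. The members and gene lists were chosen with earlier results of these data known. Genes given with values are the called member, the immunosubunits, PA28 subunits and constitutive partners, the highest and lowest log2 fold change of each other role group, and up to 8 called genes of each pathway list by adjusted p. Psma2, Psmb4, Psmc2, Psmc3ip, Psmd6, Psmg2, Psmg4, Psme2b and Psme3 lie outside that rule and were named after their values were seen.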

Additional observations from a re-analysis of the deposited data

Results flagged for a closer look

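In groups of 4 libraries, a library was singled out where its gap to the nearest other library took a larger share of the group's range than Dixon's 95% limit. This happened in 8 of 54 groups examined. For independent groups chance gives about 1 in 20, or 2.7, but these groups share the same libraries and are not independent. Of the 8, 6 were CML 5. That library was high for Psmb5 (95.41 CPM), Psmb6 (58.57 CPM), Psmb7 (45.09 CPM), Psmb8 (154.7 CPM) and Psmb9 (87.71 CPM), and low for Psme4 (61.59 CPM). CML 3 was low for Psme1, at 58.94 CPM, and CML-TKI 3 was low for Psmg3, at 7.672 CPM.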

How the results depend on the processing

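The count of genes called by edgeR, 1220, was 2157 by DESeq2, 2544 by limma-voom, 505 to 2504 with 1 library left out (2504 without CML-TKI 1), and 122 with CML 1 to 3 summed into 1 library. Of the members 1 was called, 6 by DESeq2, 8 by limma-voom, 0 to 3 with 1 library left out, and 0 with total counts without Rn45s, no filter on low counts, a filter of 1 CPM in 4 libraries, or CML 1 to 3 summed. The members' median log2 fold change of 0.26 was 0.10 without Rn45s (0.0974, where the median of all genes shifted by -0.14) and 0.10 to 0.37 with 1 library left out.

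The replicate block, on the 6 libraries that share numbers 1 to 3, gave 193 genes, 0 members and a members' median of 0.40, against 589 genes and a median of 0.45 in the same libraries without the block (chosen after seeing the data). After each gene's group mean was subtracted from its log2 CPM, same-numbered libraries correlated at -0.04, 0.10 and 0.09, so the numbers are not taken to pair them. Under the block Psmb8 to Psmb5 differed by -1.21 and Psmb10 to Psmb7 by -1.02 (exact p = 0.25, the smallest possible). With CML 1 to 3 summed they differed by -1.11 and -1.31 (exact p = 0.0667, the smallest possible). With 1 library left out, log2 differences ran from -1.24 to -0.90 for Psmb8 to Psmb5, from -1.43 to -1.09 for Psmb10 to Psmb7 and from -1.29 to -0.49 for Psmb9 to Psmb6. The medians of the immunosubunits, constitutive 20S subunits, ATPases and 20S chaperones kept their sign in all 18 alternatives, and that of the constitutive 20S subunits ran down to 0.07 (without Rn45s) and up to 0.47 (the 6 libraries without the block).

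Signs turned for 5 of the 24 members followed singly through the alternatives, none of them called. Psmd11 was -0.001 by DESeq2, -0.0153 with RLE factors, -0.13 without Rn45s, -0.0274 with no filter, -0.0074 with 1 CPM in 4 libraries, -0.13 to 0.15 with 1 library left out, -0.10 under the block, -0.0698 in those libraries without it and -0.0746 with CML 1 to 3 summed. Psmb6 was 0.0228 by limma-voom, -0.28 to 0.13 with 1 library left out, 0.25 under the block and 0.29 without it. Psmd10 was -0.0043 by limma-voom and -0.0539 (without CML-TKI 3) to 0.47 with 1 library left out, Psma5 was -0.50 to 0.0304 (without CML-TKI 3), and Psmg3 was -0.0132 without Rn45s, -0.17 with CML 1 to 3 summed and -0.0922 (without CML 2) to 0.42 with 1 library left out. The cause was not tested. Psma8, Psmc3ip and Psmg4 had no count in CML-TKI 3, so depth limits them there. Psmf1 had an adjusted p of 0.274 under the block.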
